A study of Mus musculus with 12 samples.

Results

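The effect of p53 loss was measured by bulk RNA-seq in neural progenitor cells (NPCs) of the mouse subventricular zone (SVZ) that were cultured alone. Of the 12 libraries of the study, the 6 of NPCs alone were compared, 3 of p53-/- NPCs against 3 of p53+/+ NPCs, and the other 6 libraries hold the same genotypes in co-culture with brain microvascular endothelial cells (bmvECs). The libraries were chosen by the genotype and culture in their names, and each p53-/- library was paired with the p53+/+ library of the same experiment number, 17_9, 25_9 or 1_10. NPCs came from mice aged P9 to P12, were grown with EGF, bFGF, N2, FBS and bovine pituitary extract, and were kept on laminin for 48 h before collection. The p53-/- NPCs were cells with loxP sites in both copies of the p53 gene that received an adenovirus for Cre recombinase under a CMV promoter (Ad-CMV-iCre). According to the methods, control cells received an empty virus (Ad-CMV-Null), while the labels call the controls wild type. Cre recombinase and the loss of p53 therefore cannot be told apart in these libraries. Both genotypes were used within 2 to 3 passages of infection. The labels give the strain as C57BL/6, and the methods give a mixed background. Nothing says whether the 3 experiments came from separate animals, so p-values cannot be read as a spread between animals. They measure the spread left among the 12 libraries after differences shared within an experiment are taken out.

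p53 is a transcription factor that binds a response element near its target genes and is held low by the ubiquitin ligase Mdm2, itself a p53 target. Its targets stop the cell cycle, trigger apoptosis, repair DNA and alter metabolism. The SVZ holds neural stem cells (type-B cells) that express astroglial genes such as Gfap, can rest in quiescence and give rise to progenitors, neuroblasts and oligodendrocyte precursors, and the study asked how p53 acts on the quiescence of these cells.

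The depth of the 6 libraries was similar, and all expressed progenitor markers. Total counts ranged from 16509710 to 21533978, and levels are given as CPM, the counts of a gene scaled to an equal library size. Progenitor markers were high in every library, with Nes between 1373 and 1998 CPM and Sox2 between 105 and 233 CPM. The endothelial markers Cdh5, Tie1, Cldn5 and Pecam1 were at most 0.101, 0.0464, 0.557 and 0.470 CPM, while Kdr had 1.55 to 4.54 CPM in every library and the endothelial list of 30 genes summed to 90.8 to 134 CPM, and the microglial marker Aif1 had no counts. Experiment 17_9 stood apart in both genotypes. The contractile and matrix-associated gene Ctgf had 516 and 473 CPM there and 2.19 to 22.7 CPM in the other 4 libraries, and Cyr61, Acta2 and Thbs1 were also highest there. None of the 23 tested contractile, YAP or SRF target genes was called between the genotypes by edgeR (3 were higher and 0 lower at an unadjusted p under 0.05, and DESeq2 called 0 higher and 0 lower), but without experiment 17_9 2 were higher and 8 lower. Xist and the Y-linked gene Ddx3y both had counts in all 6 libraries, and none of 5 sex-linked genes was called by edgeR (0 were higher and 1 lower at an unadjusted p under 0.05, and DESeq2 called 0 higher and 1 lower).

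The p53 gene itself was lower in every p53-/- library. Trp53 had 80.3, 96.6 and 109 CPM in p53+/+ NPCs and 11.7, 14.7 and 17.4 CPM in p53-/- NPCs of experiments 17_9, 25_9 and 1_10. This is a log2 fold change of -2.71 ± 0.16 (SE, adjusted p = 1.35e-06), and 15.3% of the p53+/+ mean was left. In bulk RNA, fewer cells with a transcript and less of it per cell cannot be told apart, here and for every gene below.

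Of 13745 genes tested, 996 were higher (7.25%) and 1282 lower (9.33%) in p53-/- NPCs, at an adjusted p under 0.05 by the quasi-likelihood test of edgeR with the experiment number as a block. Of these, 159 rose and 436 fell by more than 2-fold, and 31 rose and 108 fell by more than 4-fold. The median log2 fold change of all genes was 0.05. Counts of gene lists below are to be read against the 7.25% higher and 9.33% lower of all genes. Without the block, the same test called 277 genes higher (2.02%) and 587 lower (4.27%), and with upper-quartile scaling 721 and 1457. Without experiment 25_9 it called 88 higher and 383 lower, and without experiment 1_10 it called 158 and 565. Fits without a single alone library called between 322 (without the p53+/+ library of 25_9) and 742 genes higher and between 794 (without the same library) and 1301 lower. The log2 ratios of the 3 experiments correlated across genes with Pearson's r of 0.643, 0.543 and 0.625, which describes genes and not independent replicates.

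Among called genes that averaged a log2 CPM of 2 or more and had the same sign in 3 pairs, those that fell most were p53 targets and genes of varied function. Cdkn1a, which encodes the CDK inhibitor p21, went from 458, 350 and 408 CPM to 9.84, 4.74 and 31.2 CPM (-4.89 ± 0.46, adjusted p = 3.18e-05). Eda2r, a member of the TNF receptor family, went from 160, 116 and 119 CPM to 2.08, 0.956 and 13.0 CPM (-4.89 ± 0.55, adjusted p = 0.000121). For both genes the lowest p53+/+ library lay far above the highest p53-/- library, which was that of experiment 1_10. Trp53 was also highest in this p53-/- library, as it was in the p53+/+ library of the same experiment. The part of the residual Trp53 level in the residual levels of Cdkn1a and Eda2r was not tested. The p53-induced nuclear RNA Trp53cor1, also called lincRNA-p21, went from 14.6, 12.1 and 12.2 CPM to 0.0969, 0.319 and 1.05 CPM.

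Other large falls were those of 9030617O03Rik (-4.15 ± 0.29), the anoctamin Ano3 (-4.14 ± 0.28), the AMPA receptor subunit Gria3 (-3.63 ± 0.20), the carbonyl reductase Dcxr (-3.59 ± 0.23), Klhdc7a (-3.55 ± 0.23), the BH3-only protein Pmaip1 (-3.22 ± 0.18), Prrg4 (-3.11 ± 0.31), the adenylate kinase Ak1 (-3.01 ± 0.15) and Cep170b (-2.96 ± 0.15). Their adjusted p-values ranged from 7.29e-07 for Ak1 to 5.50e-05 for Prrg4, and each was called in every alternative fit. Rises were smaller. Under the same limit on abundance, which leaves out several interferon genes with larger rises described later, the largest were those of the antiviral gene Rsad2 (2.62 ± 0.25, adjusted p = 3.43e-05), the monooxygenase Moxd1 (2.49 ± 0.24, adjusted p = 3.90e-05) and the chemokine Cxcl10 (2.12 ± 0.53, adjusted p = 0.0194). Cxcl10 had 30.1, 2.48 and 1.88 CPM in p53+/+ and 70.5, 33.8 and 13.6 CPM in p53-/- NPCs, so that the groups overlapped, and it was not called without the block (adjusted p = 0.203) or in 6 other of the 18 alternative fits. Further rises were those of Fgfbp3, a carrier of fibroblast growth factors (1.75 ± 0.21), the interferon-induced Xaf1 (1.71 ± 0.24) and Ifih1 (1.61 ± 0.19), Arhgef3 (1.65 ± 0.20), the connexin Gjc3 (1.52 ± 0.37), the PDGF receptor Pdgfra (1.5 ± 0.16), the branched-chain aminotransferase Bcat1 (1.33 ± 0.23), Dlgap3 (1.32 ± 0.16) and Mical1 (1.31 ± 0.22). Of these, Gjc3 was lost in 6 alternative fits, the one without the block among them (adjusted p = 0.0581), and Mical1 was not called without experiment 25_9.

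Among regulators of p53, the ubiquitin ligase Mdm2 went from 173, 108 and 112 CPM to 80.5, 54.0 and 63.2 CPM (-0.98 ± 0.13, adjusted p = 0.000509), with no overlap. Cdkn2a, the locus of p16 and of the Mdm2 inhibitor p19Arf, rose from 30.1, 50.3 and 37.9 CPM to 86.8, 89.0 and 65.4 CPM (1.05 ± 0.15, adjusted p = 0.000928), with no overlap between the groups. Of the 15 genes of the p53 family and its regulators, 2 were higher, Cdkn2a and the checkpoint kinase Chek2 (0.44 ± 0.10), and 3 lower, Trp53, Mdm2 and the ubiquitin ligase Rchy1 (-0.37 ± 0.11). Chek2 and Rchy1 were not called without the block (adjusted p = 0.180 and 0.101) and lost their calls in 5 and 8 alternative fits.

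Each functional class of p53 targets held genes that fell, most of the members for arrest, apoptosis and other functions and a minority for DNA repair and metabolism. Of 21 tested genes of arrest and p53 feedback, 14 were lower and 1 higher, with a median log2 fold change of -1.02. Besides Cdkn1a and Mdm2 these included the cyclin Ccng1, which went from 993, 601 and 620 CPM to 59.8, 45.0 and 116 CPM (-3.38 ± 0.27, adjusted p = 1.06e-05), and Phlda3, an inhibitor of Akt, which went from 85.8, 96.9 and 99.4 CPM to 10.7, 12.1 and 16.8 CPM (-2.84 ± 0.17). Sesn2, a stress-induced inhibitor of mTORC1, went from 82.7, 104 and 96.0 CPM to 20.1, 22.9 and 21.1 CPM (-2.14 ± 0.13). In all 3 genes the groups were far apart. Trp53inp1 (-2.83 ± 0.19), the RNA-binding protein Zmat3 (-1.46 ± 0.10) and the arrest mediator Rprm (-1.63 ± 0.13) fell too. The gene that rose was the CDK inhibitor Cdkn1b (0.53 ± 0.11, adjusted p = 0.00716), which was not called without experiment 25_9 or 1_10.

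Of 20 tested targets of apoptosis, 11 were lower and none higher, with a median of -0.71. Death receptors and mitochondrial effectors were among them. Tnfrsf10b, a receptor of TRAIL, went from 60.9, 33.4 and 40.6 CPM to 6.4, 4.46 and 7.55 CPM (-2.86 ± 0.17). The pore-forming protein Bax went from 147, 172 and 161 CPM to 79.7, 63.8 and 57.7 CPM (-1.26 ± 0.13), and the BH3-only protein Bbc3, also called Puma, from 7.87, 13.1 and 11.1 CPM to 3.49, 3.55 and 2.16 CPM (-1.83 ± 0.25). Both sets of libraries were separate, with Bbc3 at few counts. The nuclease Aen (-1.58 ± 0.11), the caspase adaptor Pidd1 (-1.64 ± 0.14) and Apaf1 (-0.81 ± 0.13), the core of the apoptosome, also fell. The death receptor Fas had 103, 21.6 and 19.1 CPM in p53+/+ and 29.4, 4.05 and 5.71 CPM in p53-/- NPCs, so that the groups overlapped while each pair fell, and it was not called without the block (adjusted p = 0.129) or in 4 other alternative fits.

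Of 11 targets of DNA repair, 3 were lower and 8 were not called, with a median of -0.12. Mgmt, which removes methyl groups from guanine, went from 13.4, 8.09 and 7.22 CPM to 1.36, 1.09 and 1.28 CPM (-2.92 ± 0.26), and the translesion polymerase Polk (-1.68 ± 0.19) and the excision nuclease Ercc5 (-1.01 ± 0.1) fell as well. Of 24 targets in metabolism, redox control and autophagy, 6 were lower and none higher, with a median of -0.07. Cpt1c, the brain form of carnitine palmitoyltransferase 1, went from 121, 127 and 109 CPM to 30.1, 38.3 and 36.3 CPM (-1.76 ± 0.11, adjusted p = 2.09e-06). The epoxide hydrolase Ephx1 (-1.65 ± 0.11), the acyl-CoA dehydrogenase Acad11 (-0.96 ± 0.10), Ppargc1a (-0.69 ± 0.14), Ak1 and the lysosomal fucosidase Fuca1 (-0.51 ± 0.09) were the others. Of 20 targets of other function, 13 were lower, among them the microtubule-associated Psrc1 (-2.08 ± 0.10), the thiamine transporter Slc19a2 (-1.92 ± 0.12), the sulfatase Sulf2 (-1.23 ± 0.12) and Tap1, a transporter of peptides for antigen presentation (-1.33 ± 0.12). That last count was 8 without experiment 25_9 and 8 without experiment 1_10. These lists hold genes long known as p53 targets in other cells, and their members were not chosen independently of earlier results on these libraries.

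**Figure D1:**
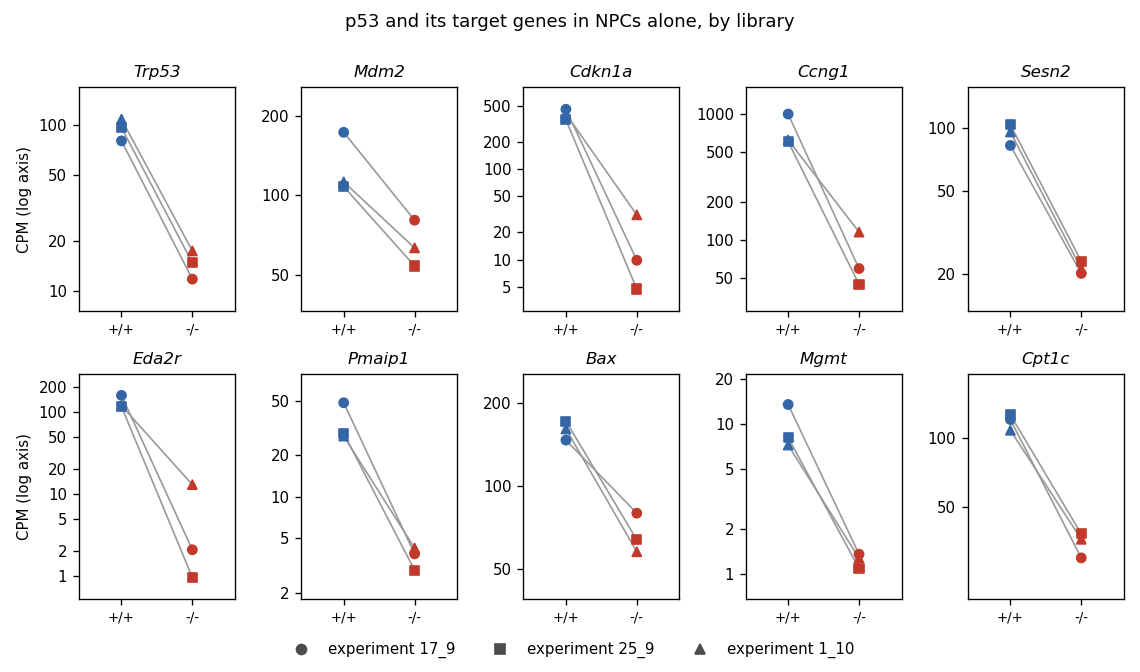
Expression of p53 and 9 target genes in NPCs alone, in CPM on a log axis, with 1 point per library (circle, square and triangle for experiments 17_9, 25_9 and 1_10; blue p53+/+, red p53-/-) and a line joining the libraries of each experiment. Every line falls, and Cdkn1a, Ccng1 and Eda2r keep a higher level in the p53-/- library of experiment 1_10.

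Promoters were searched for the p53 response element, since it is the sequence through which p53 acts on its targets. The windows were those of RefSeq (GRCm38.p6), from 250 bases before to 50 bases after each annotated start, and 10867 of the 13745 genes tested had one. An element was counted, by name, as a pair of adjacent half-sites of 10 bases with at most 2 mismatches outside the fixed C and G of each core, on either strand. It was in a window of 44 genes, 0.405% of the 10867, of which 12 were among the 994 called lower (1.21%) and 0 among the 791 called higher. The p53 target lists and the list of the p53 family and its regulators held 41 genes called lower that had a window. Of these, 4 held the element: Cdkn1a, Ccng1, Ckap2 and Gtse1. A match describes the letters and is not a bound site, and the absence of a match says nothing about p53 at other positions. Below are the elements of Cdkn1a, Ccng1 and Ckap2, which lie before the start, with capitals for the element and 15 bases on each side. They lie at chr17:29090913-29090962 (+ strand), chr11:40755447-40755496 (- strand) and chr8:22185988-22186037 (- strand).
Cdkn1a: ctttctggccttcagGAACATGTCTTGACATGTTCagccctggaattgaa
Ccng1: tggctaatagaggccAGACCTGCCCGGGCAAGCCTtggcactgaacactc
Ckap2: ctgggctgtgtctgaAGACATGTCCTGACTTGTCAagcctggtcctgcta

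The elements of Cdkn1a and Ccng1 each had 1 mismatch and that of Ckap2 2. Ckap2, a spindle protein, went from 319, 197 and 241 CPM to 102, 96.8 and 127 CPM (-1.22 ± 0.16, adjusted p = 0.000465), with no overlap between the groups. The element of Gtse1 (-0.70 ± 0.11), a regulator of p53 in the G2 phase, spans the start.

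**Figure D2:**
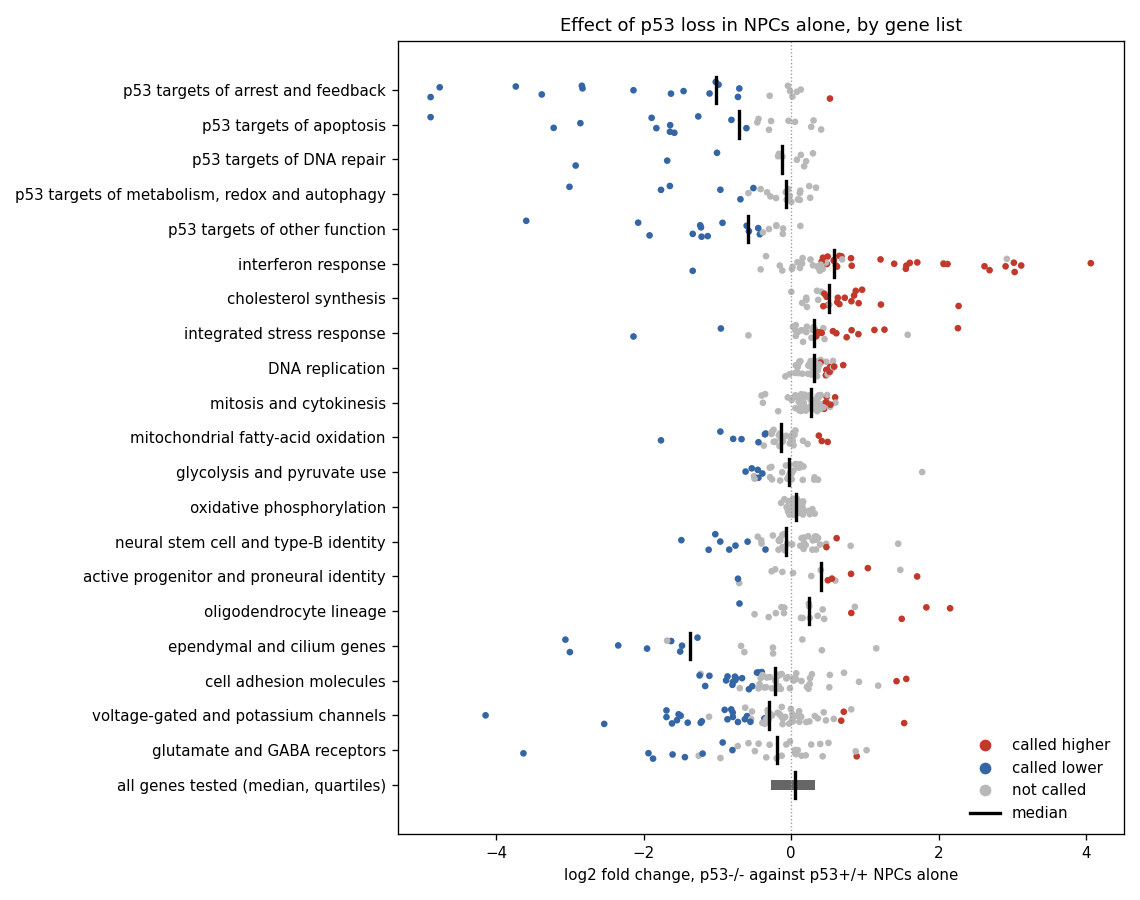
Log2 fold change of p53-/- against p53+/+ NPCs alone for each tested gene (points) of 20 gene lists, with the list's median as a black bar and the median and quartiles of all genes tested in the lowest row. Red and blue points passed the test as higher and lower, and the medians run from -1.37 for ependymal and cilium genes and -1.02 for p53 targets of arrest to 0.58 for interferon genes, with p53 targets of DNA repair (-0.12) and metabolism (-0.07) near the median of all genes (0.05).

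Interferon-induced genes rose together. Interferons act through a receptor that activates transcription factors such as Stat2 and Irf9, which bind the interferon-stimulated response element (ISRE) of antiviral genes. Of 49 tested genes of the interferon response, 27 were higher (55.1%) and 1 lower, with a median log2 fold change of 0.58. Without the block 18 were higher. Without experiment 25_9 12 were higher, without experiment 1_10 15, without the p53+/+ library of experiment 25_9 14 and without its p53-/- library 17. The summed level of the list was 602 to 628 CPM in p53+/+ and 745 to 950 CPM in p53-/- NPCs.

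Levels in p53+/+ NPCs were low. Ifit1, which binds foreign RNA, went from 2.31, 1.14 and 0.661 CPM to 11, 14.9 and 6.6 CPM (3.02 ± 0.28, adjusted p = 3.34e-05). The ubiquitin-like Isg15 went from 0.875, 1.24 and 0.559 CPM to 6.20, 8.70 and 2.83 CPM (2.69 ± 0.25). The oligoadenylate synthetase-like Oasl2 went from 1.12, 1.89 and 0.865 CPM to 7.56, 16.9 and 7.77 CPM (3.03 ± 0.34). All p53-/- libraries of these genes lay above all p53+/+ libraries, and that of experiment 25_9 was the highest. Rsad2, also called viperin, went from 3.44, 3.43 and 2.08 CPM to 17, 26.1 and 12.2 CPM.

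By role, the sensors of viral RNA Ifih1 (1.61 ± 0.19) and Ddx58 (0.68 ± 0.14) and the transcription factors Irf7 (1.56 ± 0.30), Irf9 (0.82 ± 0.17) and Stat2 (0.61 ± 0.19) were higher. Stat2 was not called without the block (adjusted p = 0.118) and lost its call in 12 alternative fits. Among effectors, Oasl1 (3.12 ± 0.33), Ifi44 (2.91 ± 0.43), the membrane tether Bst2 (1.21 ± 0.15) and Mx2 (1.55 ± 0.26) were higher, as was Usp18 (2.12 ± 0.34), which removes Isg15 from proteins. Mx1 was called at 0.0625, 0 and 0 CPM in p53+/+ and 0.145, 0.774 and 0.277 CPM in p53-/- NPCs, too few counts for a fold. The class I antigens H2-K1 (0.58 ± 0.12) and H2-D1 (0.62 ± 0.17) and the immunoproteasome subunit Psmb10 (0.58 ± 0.13) were also higher, of which H2-D1 and Psmb10 were not called without the block (adjusted p = 0.0661 and 0.0520), while Tap1, listed here and among p53 targets, was the 1 gene lower. Ifit2, Trim30a and Eif2ak2, the kinase PKR, were not called, with log2 fold changes of 0.01, 0.02 and -0.12. Genes of the Ifit, Oasl, Gbp and H2 families have near-identical copies, and reads that match several copies may be missing from the authors' counts.

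The ISRE, searched as 2 copies of GAAA with 2 bases between them on either strand, was in a window of 3.52% of the 10867 genes and of 20 of the 36 genes of the interferon list that had a window (55.6%). Of the 19 called higher, 10 held it (52.6%), a share no larger than that of the list. The list was made of interferon response genes, so its excess over all genes is not a finding on p53 loss. This search was added after the calls were seen. Elements of genes with large rises are shown, with capitals for the element, at chr4:156200860-156200911 (- strand), chr19:34640770-34640809 (+ strand) and chr12:26456548-26456587 (- strand). Isg15 holds 3 overlapping matches, and Ifit1 and Rsad2 hold theirs on the opposite strand.
Isg15: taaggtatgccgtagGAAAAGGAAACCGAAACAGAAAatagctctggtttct
Ifit1: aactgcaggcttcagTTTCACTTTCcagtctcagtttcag
Rsad2: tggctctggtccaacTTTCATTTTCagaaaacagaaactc

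For 5 of the 49 interferon genes the effect of p53 loss differed between NPCs alone and NPCs in co-culture by a test of the difference. In co-culture, 3 of the 49 genes were higher and 4 lower in p53-/- cells, with a median of -0.03. Some of these genes had higher levels there than alone in both genotypes. Ifit1 had 116 ± 10.9 CPM (mean ± SD, n = 3) in p53+/+ and 106 ± 11.9 CPM in p53-/- co-cultures, and Oasl2 209 ± 25.4 and 188 ± 15.4 CPM. The difference between the 2 effects of p53 loss was tested as an interaction, which called 11 of 13745 genes (0.0800%), 5 of them on the interferon list. The count was 1 without experiment 1_10, 2 without experiment 25_9 and 163 without experiment 17_9. The log2 effect of p53 loss alone exceeded that in co-culture by 3.15 ± 0.35 for Ifit1 and by 2.69 ± 0.30 for Isg15 (edgeR, both adjusted p = 0.00429). For Rsad2 the excess was 1.71 ± 0.32, which did not pass (adjusted p = 0.0888). Co-culture libraries may hold RNA of bmvECs, whose part in these levels was not tested.

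**Figure D3:**
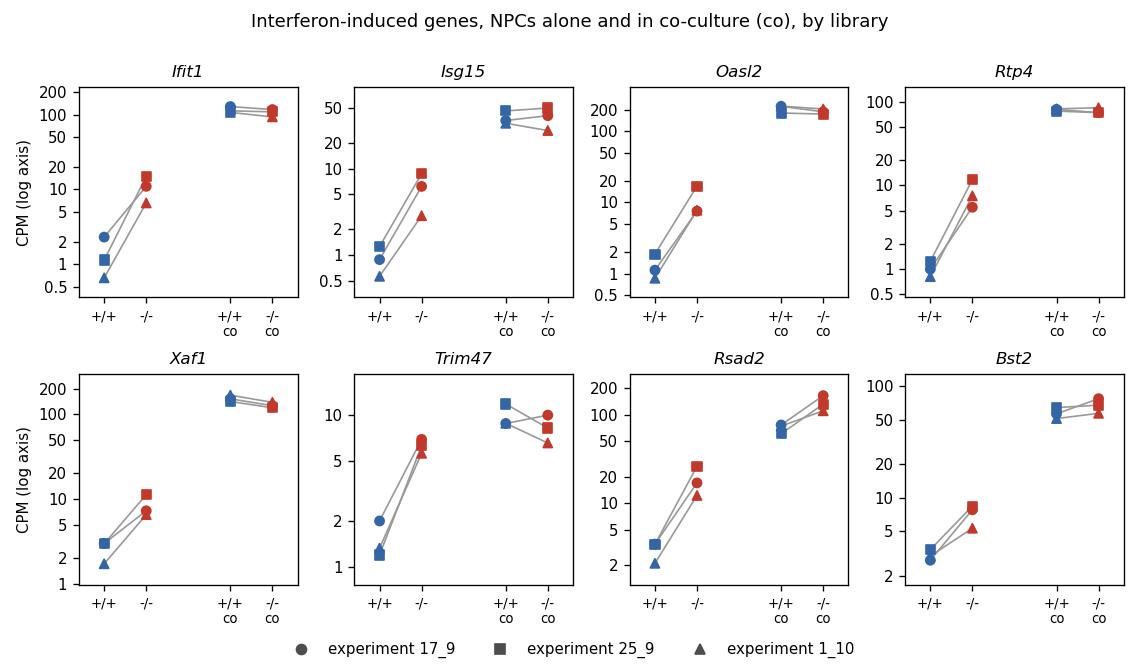
Expression of interferon-induced genes and of the ubiquitin ligase Trim47 (8 genes with Trim47) in CPM on a log axis. Each library is 1 point (markers as for the p53 targets, with co for co-culture), and lines join the libraries of each experiment. Alone, every line rises from p53+/+ to p53-/-, and in co-culture both genotypes lie higher and, except for Rsad2, close together.

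Cholesterol synthesis genes were higher in p53-/- NPCs. Of 24 tested, 15 were higher (62.5%), none was lower, and all 24 log2 fold changes were above 0, with a median of 0.51. Acat2, whose product joins acetyl-CoA units, went from 66.5, 102 and 134 CPM to 163, 219 and 320 CPM (1.22 ± 0.15, adjusted p = 0.000304). No p53-/- library was as low as a p53+/+ library, and experiment 17_9 was lowest and 1_10 highest in each genotype.

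Enzymes of early and late steps rose, from the mevalonate kinases Mvk (0.62 ± 0.11) and Pmvk (0.82 ± 0.14), the decarboxylase Mvd (0.91 ± 0.18) and farnesyl diphosphate synthase Fdps (0.87 ± 0.13) to lanosterol synthase Lss (0.85 ± 0.17), Tm7sf2 (0.96 ± 0.17), Nsdhl (0.63 ± 0.12) and Dhcr7 (0.65 ± 0.13). For Lss, 52.6, 120 and 161 CPM in p53+/+ stood against 108, 214 and 268 CPM in p53-/- NPCs, so that the groups overlapped while each pair rose. This spread between experiments is what the block takes out. Without it 4 of the 24 genes were higher, with Lss at an adjusted p of 0.225 and Mvd, Nsdhl, Dhcr7, Mvk and Fdps also not called (0.179, 0.168, 0.206, 0.126 and 0.0867). The count was 3 without experiment 25_9 and 8 without experiment 1_10. In co-culture 5 were higher, and no gene of the list passed the interaction test.

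**Figure D4:**
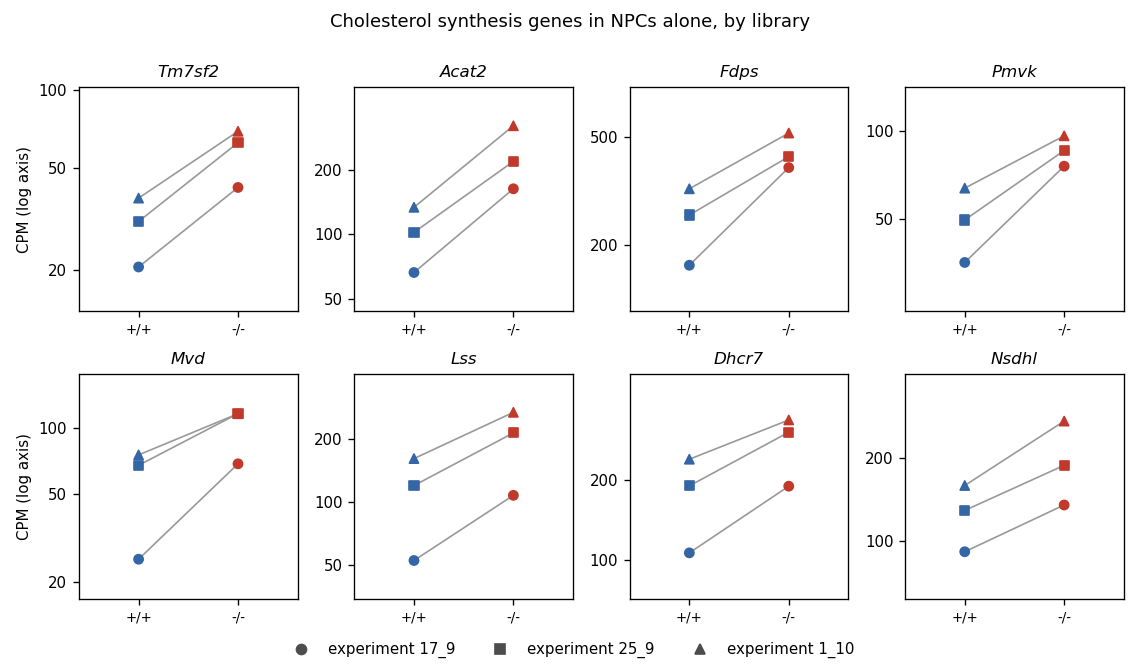
Expression of 8 cholesterol synthesis genes in NPCs alone, in CPM on a log axis, with 1 point per library and lines joining the libraries of each experiment. Every line rises, and for Mvd, Lss, Dhcr7 and Nsdhl the p53-/- library of experiment 17_9 lies within the range of the p53+/+ libraries.

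Other lipid genes moved in both directions. Of 33 genes of mitochondrial fatty-acid oxidation, 7 were lower and 3 higher, with a median of -0.14. Cpt1c fell most, followed in significance by Acad11, the short branched-chain acyl-CoA dehydrogenase Acadsb (-0.67 ± 0.12) and Hadhb, a subunit of the trifunctional protein (-0.44 ± 0.10). Whether Cpt1c, the brain form, takes part in mitochondrial oxidation in these cells was not tested. Acsl5 (0.37 ± 0.10), Acsl4 (0.49 ± 0.15) and Hsd17b10 (0.41 ± 0.11) were the 3 higher, and none of them was called without the block (adjusted p = 0.180, 0.223 and 0.0817). Without the block 4 were lower and none higher, and without experiment 25_9 2 were lower. Of 19 peroxisomal genes, 3 were lower and 1 higher, and none was called without experiment 25_9.

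Of 19 PPAR receptors and regulators, 1 was called. Ppargc1a, a coactivator of PPARs in fat oxidation, went from 99.2, 70.3 and 75.3 CPM to 42.4, 49.5 and 57.9 CPM (-0.69 ± 0.14, adjusted p = 0.00800), with no overlap, and was not called without experiment 25_9. The receptors Ppara (4, 6.21 and 8.80 against 2.76, 5.69 and 6.05 CPM, adjusted p = 0.306) and Ppard (24.2, 32.4 and 26.9 against 26.8, 35.7 and 27.4 CPM, adjusted p = 0.565) overlapped between the genotypes. Against 7.25% higher and 9.33% lower of all genes, the 24 genes of fatty-acid synthesis and desaturation held 4 higher (16.7%) and 2 lower (8.33%). The 24 genes of lipid droplets and lipolysis held the same counts. Neither list had a gene higher without experiment 25_9 or 1_10. In energy metabolism, 5 of 32 glycolysis genes were lower, led by the lactate dehydrogenase subunit Ldhb (-0.62 ± 0.11), but none without the block or without experiment 25_9. Of 23 genes of the TCA cycle 2 were lower (8.7%, near the 9.33% of all genes), with Ogdhl at -1.08 ± 0.14 (adjusted p = 0.000425), and 1 was higher. None of 51 genes of oxidative phosphorylation was called by edgeR with or without the block (3 were higher and 0 lower at an unadjusted p under 0.05, and DESeq2 called 0 higher and 0 lower), and their median was 0.06.

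Some genes of the integrated stress response were higher. This response acts through the transcription factor Atf4, whose own RNA was not called (0.30). Of 32 tested genes 12 were higher (37.5%) and 2 lower, with a median of 0.31. The asparagine synthetase Asns went from 36.8, 45.7 and 42.5 CPM to 69.0, 64.0 and 77.0 CPM (0.75 ± 0.11, adjusted p = 0.000956). Nupr1, a stress-induced chromatin protein, went from 0.562, 0.695 and 0.661 CPM to 5.04, 3.23 and 1.72 CPM (2.26 ± 0.29, adjusted p = 0.000390). Neither gene overlapped between the groups, and both were called in every alternative fit. The hormone Stc2 (1.13 ± 0.19), the cystine transporter Slc7a11 (0.91 ± 0.18), the serine synthesis enzyme Phgdh (0.61 ± 0.14), the glutathione-degrading Chac1 (1.26 ± 0.30) and the transcription factor Ddit3 (0.82 ± 0.24) were also higher. Slc7a11, Chac1 and Ddit3 were not called without the block (adjusted p = 0.106, 0.0784 and 0.222). The 2 genes lower were the p53 target Sesn2 and the lipoprotein receptor Vldlr (-0.95 ± 0.12). Without the block 5 were higher, without experiment 25_9 2, without experiment 1_10 5, and 6 each without the p53+/+ library of 17_9, the p53-/- library of 17_9 or the p53+/+ library of 25_9.

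The C/EBP-ATF element that Atf4 binds, searched as TGATGNAA on either strand, was in a window of 2.71% of the 10867 genes, and in 8 of the 26 genes of the stress list that had a window (30.8%), 5 of the 10 higher among them. Vldlr, which fell, and Aars and Trib3, which were not called, held it too. Among all genes with a window, 3.03% of those called higher and 2.52% of those called lower held it. This search too was added after the calls were seen. Elements of 3 genes that rose are shown, with capitals for the element, at chr6:7693210-7693247 (- strand), chr7:126625558-126625595 (- strand) and chr2:119351034-119351071 (+ strand). The last 2 are matches on the opposite strand.
Asns: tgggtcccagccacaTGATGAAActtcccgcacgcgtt
Nupr1: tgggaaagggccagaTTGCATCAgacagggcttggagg
Chac1: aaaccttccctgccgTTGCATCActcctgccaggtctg

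Cell cycle genes had small differences. Of 51 DNA replication genes 7 were higher (13.7%) and none lower, with a median of 0.31, and of 65 genes of mitosis and cytokinesis 6 were higher (9.23%) and none lower, with a median of 0.26. Of all genes 7.25% were higher, a share near that of the mitosis list. Log2 fold changes were above 0 for 49 of the 51 replication genes and 60 of the 65 mitosis genes, against 7661 of all 13745. At an unadjusted p under 0.05 by edgeR, 26 and 24 were higher and 0 and 1 lower. DESeq2 called 11 and 9 higher. The replication factor subunit Rfc4 went from 41.1, 39.3 and 38.4 CPM to 65.9, 54.1 and 76.0 CPM (0.71 ± 0.14, adjusted p = 0.00662), and the kinase Aurka from 60.7, 64.7 and 78.1 CPM to 92.5, 89.5 and 92.3 CPM (0.45 ± 0.12, adjusted p = 0.0279). Neither gene overlapped, and Aurka was not called without the block (adjusted p = 0.145). Mki67, a marker of cycling cells, was not called (854, 543 and 843 against 484, 545 and 693 CPM). Without the block 1 gene of each list was higher. Without experiment 17_9, the counts were 21 of replication and 31 of mitosis, and without experiment 25_9 or 1_10 both were 0. In co-culture 41 of the 51 and 63 of the 65 genes were higher in p53-/- cells, and of both lists together only Mki67 passed the interaction test.

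Cyclins and CDK inhibitors included larger changes. The cyclin Ccnd2 fell from 2026, 1758 and 1790 CPM to 1084, 1090 and 1194 CPM (-0.74 ± 0.14, adjusted p = 0.00417), with no overlap, and was not called without experiment 25_9. The CDK inhibitor Cdkn1c (p57) rose from 1.19, 1.09 and 0.712 CPM to 3.44, 3.01 and 1.83 CPM (1.46 ± 0.25, adjusted p = 0.00227) and was likewise lost without that experiment. Of 23 cyclins and CDKs 3 were higher (13.0%) and 2 lower (8.7%, near the 9.33% of all genes). Of 25 CDK inhibitors, pocket proteins and E2F genes 5 were higher (20.0%), Cdkn2a, Cdkn1b and Cdkn1c among them, and 1 lower, Cdkn1a. Of the cyclins and CDKs none was higher without the block, without experiment 25_9 or 1_10 or without the p53+/+ library of 1_10. Of the CDK inhibitor list 3 were higher without the block, 1 without experiment 25_9, 2 without experiment 1_10 and 3 without each of 5 single libraries, all but the p53+/+ library of 17_9. Of 32 genes of homologous recombination and the Fanconi pathway 4 were higher, led by the helicase Blm (0.57 ± 0.14), and none without the block, without experiment 25_9 or 1_10 or without 3 of the single libraries.

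Some astroglial genes of type-B cells were lower. Of 44 genes of stem cell and type-B identity 8 were lower and 2 higher, with a median of -0.07. Gfap, the intermediate filament of astroglia, went from 656, 602 and 411 CPM to 264, 414 and 197 CPM (-0.96 ± 0.14, adjusted p = 0.000794). The apolipoprotein Apoe went from 599, 877 and 529 CPM to 191, 376 and 171 CPM (-1.49 ± 0.18, adjusted p = 0.000248), and clusterin, Clu, from 489, 360 and 196 CPM to 276, 157 and 73.1 CPM (-1.12 ± 0.18). For Gfap and Clu the groups overlapped while each pair fell, and neither was called without the block (adjusted p = 0.0873 and 0.178). The carboxypeptidase Cpe (-0.76 ± 0.09) and the connexin Gja1 (-0.84 ± 0.13) fell too, and Cd9 (0.48 ± 0.11) and the Notch effector Hes1 (0.62 ± 0.15) were the 2 higher. The count of genes lower was 4 without experiment 25_9, 5 without experiment 1_10 and 3 without the block.

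Genes of motile cilia, which ependymal cells carry and which are built under the transcription factor Foxj1, fell. Of 16 tested 8 were lower and none higher, with a median of -1.37, and 6 to 8 were lower over the fits without a library or an experiment. Foxj1 went from 99.6, 104 and 87.2 CPM to 55.4, 38.8 and 28.6 CPM (-1.27 ± 0.16, adjusted p = 0.000280). The dynein heavy chain Dnah9 went from 11.3, 3.62 and 1.88 CPM to 0.872, 0.638 and 0.277 CPM (-3.06 ± 0.41), and Ccdc40, which sets the spacing of dynein arms, from 6.75, 4.72 and 2.75 CPM to 1.84, 1.00 and 0.777 CPM (-1.95 ± 0.25). In these 3 genes no p53-/- library reached a p53+/+ library. Dnah11 (-3.00 ± 0.46), Dnah5 (-1.63 ± 0.27) and Rsph1 (-1.50 ± 0.26) also fell, while Rfx2 and Rfx3, which act with Foxj1, were not called (-0.25 for both). In co-culture 10 of the 16 were lower and 1 higher.

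Genes of progenitor and oligodendrocyte lineages were in part higher. Of 15 genes of active and proneural progenitors 5 were higher (33.3%) and 1 lower. The homeobox gene Gsx2 went from 1.00, 1.99 and 2.24 CPM to 3.97, 6.42 and 6.38 CPM (1.71 ± 0.20, adjusted p = 0.000155), Dlx2, which acts in the making of interneurons, rose by 0.81 ± 0.17, and Mfng, which modifies Notch, by 1.04 ± 0.17. Without experiment 25_9 1 of them was higher, without 1_10 2, and without 5 of the 6 single libraries 3. Of 20 oligodendrocyte lineage genes 4 were higher and 1 lower, and the 1 lower was not called without the block. The summed level of the list was lower, at 6040 to 6700 CPM in p53+/+ and 3720 to 5890 CPM in p53-/- NPCs. Pdgfra, a receptor on oligodendrocyte precursors, went from 23.4, 21.9 and 17.8 CPM to 48.9, 70.5 and 58.6 CPM and was called in every alternative fit. Sox10 (0.250, 3.58 and 2.14 against 1.36, 13.0 and 8.16 CPM) and Gpr17 (0.312, 3.23 and 1.12 against 0.824, 17.6 and 5.16 CPM) were lowest in experiment 17_9 in both genotypes, so that the groups overlapped, rose in each pair (adjusted p = 0.0482 and 0.0236) and were not called without the block (adjusted p = 0.125 and 0.154). Ugt8a, an enzyme of myelin lipids, was the other gene higher (0.81 ± 0.20). The list had between 1 and 7 genes higher over the fits without a library or an experiment, with 7 without experiment 17_9 and 1 without experiment 25_9 or 1_10. Of 20 neuroblast and neuron genes 3 were higher and 5 lower, and without experiment 1_10 none.

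Ion channels and receptors fell more often than they rose. Of 65 voltage-gated and potassium channel genes 21 were lower (32.3%) and 3 higher, with a median of -0.31, and 12 were lower without the block, 12 without experiment 25_9 and 11 without experiment 1_10. The anoctamin Ano3, a member of another protein family that is also on this list, fell most. The potassium channel Kcnc1 went from 395, 543 and 661 CPM to 179, 249 and 255 CPM (-1.21 ± 0.12, adjusted p = 4.47e-05). The sodium channel subunit Scn3b (-1.69 ± 0.21), the calcium-activated potassium channel Kcnma1 (-1.62 ± 0.19) and the calcium channel subunits Cacna2d3 (-1.53 ± 0.20) and Cacna1a (-0.79 ± 0.11) fell and kept their calls in every alternative fit.

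Of 33 glutamate and GABA receptor genes 8 were lower (24.2%) and 1 higher, and 3 lower without experiment 25_9. Gria3 went from 152, 90.7 and 104 CPM to 8.43, 6.42 and 13.4 CPM (adjusted p = 9.92e-07), and Gria1, another AMPA receptor subunit, from 28.2, 45.3 and 51.2 CPM to 6.93, 14.1 and 13.2 CPM (-1.87 ± 0.16, adjusted p = 1.82e-05). Both were separate between the genotypes. In co-culture Gria3 fell by 3.67 on the log2 scale and Gria1 by 0.69, and the interaction did not pass for Gria1 (-1.18 ± 0.22, adjusted p = 0.0888). The GABA receptor subunits Gabrb1 (-1.61 ± 0.23) and Gabra4 (-0.93 ± 0.22) fell as well, and the NMDA receptor subunit Grin2c (0.89 ± 0.19) was the 1 higher. Gabra4 and Grin2c were not called without experiment 25_9, nor Grin2c without the block (adjusted p = 0.0568).

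Adhesion and matrix genes were also lower more often than higher. Of 57 adhesion molecules 16 were lower (28.1%) and 2 higher, of 30 integrins and laminins 8 lower and 3 higher, and of 64 genes of axon guidance 13 lower and 7 higher. Without the block these were 6 and 0, 2 and 2, and 2 and 0. Without experiment 25_9 4, 3 and 2 genes of these lists were lower, and without experiment 1_10 4, 3 and 4. The neural adhesion molecules Chl1 (-0.88 ± 0.15) and Cadm2 (-1.11 ± 0.19) and the integrin Itgav (-0.81 ± 0.15), which binds vitronectin, fell. Itga6 (0.58 ± 0.11), a subunit of laminin receptors, and Lama4 (1.13 ± 0.14), a laminin chain, rose. The semaphorin receptor Plxna1 went from 261, 234 and 261 CPM to 134, 148 and 132 CPM (-0.87 ± 0.10, adjusted p = 0.000221).

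Of 48 collagens and matrix proteins 9 were lower and 5 higher, and 6 to 12 were lower over the fits without a library or an experiment. None was higher without experiment 25_9, 1 without experiment 1_10, and 3 without the p53-/- library of 17_9 or the p53+/+ library of 25_9 or 1_10. Thbs2, a thrombospondin, went from 268, 140 and 188 CPM to 92.7, 61.0 and 64.4 CPM (-1.43 ± 0.12, adjusted p = 1.78e-05), and Col18a1, the source of endostatin, from 286, 264 and 341 CPM to 144, 127 and 144 CPM (-1.09 ± 0.11). No p53-/- library reached a p53+/+ library in either gene. Col1a1 rose from 1.81, 1.14 and 1.02 CPM to 5.86, 2.55 and 2.00 CPM (1.34 ± 0.30), as did Pdgfrb (1.17 ± 0.24), both markers of mural cells and fibroblasts. Of the 12 tested genes of that marker list 3 were higher, with Pdgfra the third, and Notch3 was lower. Without experiment 25_9 or 1_10 only 1 was higher, and Notch3 was not called without experiment 1_10. The list summed to 281 to 891 CPM in p53+/+ and 270 to 1390 CPM in p53-/- NPCs, and its markers Rgs5 and Dcn were at most 0.254 and 0.0940 CPM. The part of such cells in these rises was not tested.

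Genes of signalling pathways were called in both directions, at shares to be read against the 7.25% higher and 9.33% lower of all genes. Notch genes were 14.7% higher and 14.7% lower, Wnt genes 11.8% and 20.6%, BMP and TGF-beta genes 0% and 15.8%, and growth factor genes 9.09% and 15.9%. Of 34 Notch genes 5 were higher, among them the ligand Dll3 (6.12, 9.73 and 8.24 against 14.3, 24.0 and 17.1 CPM, 1.19 ± 0.15, adjusted p = 0.000354), and 5 lower, among them the receptors Notch3 (-0.99 ± 0.19) and Notch2 (-0.67 ± 0.15) and the ligand-like Dner (-0.83 ± 0.11). Of 34 Wnt genes 7 were lower, with the ligands Wnt7b (-0.60 ± 0.10), Wnt5a (-0.82 ± 0.15) and Wnt5b (-0.86 ± 0.16), and 4 higher, with the inhibitor Sfrp5 (2.40 ± 0.38) at 0.0625, 0.348 and 0.203 against 0.484, 1.78 and 1.17 CPM. Of 38 BMP and TGF-beta genes 6 were lower, led by the activin inhibitor follistatin, Fst (6.37, 3.67 and 3.92 against 1.60, 1.87 and 1.67 CPM, -1.39 ± 0.23). Of 44 genes of EGF, FGF, PDGF and IGF signalling 7 were lower and 4 higher. The ligands Hgf (-1.68 ± 0.22), Fgf1 (-0.78 ± 0.15) and Pdgfa (-0.83 ± 0.17) and the neurotrophin receptor Ntrk2 (-0.72 ± 0.11) fell, while the receptors Pdgfra and Pdgfrb rose. Without experiment 25_9 the genes lower were 2 for Notch, 2 for Wnt, 1 for BMP and TGF-beta and 3 for the growth factors, and without experiment 1_10 they were 2, 4, 1 and 3. Without experiment 17_9 they were 8 for Notch and 16 for the growth factors. The genes higher were 1 for Notch, 0 for Wnt and 2 for the growth factors without experiment 25_9, and 2 for each without experiment 1_10. Of 35 ERK feedback and immediate early genes 1 was higher and 2 lower, the phosphatase Dusp4 (-0.63 ± 0.12) and Spred3 (-0.51 ± 0.10), none of which was called without experiment 25_9.

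Much of the effect of p53 loss alone was also seen in co-culture, where 1373 genes were higher (9.99%) and 1499 lower (10.9%). Of the genes lower alone 783 were lower in co-culture too, which is 61.1% of those lower alone and 52.2% of those lower in co-culture. Of the genes higher alone 385 were higher in co-culture, which is 38.7% and 28.0% of each list. Only 4 genes were higher alone and lower in co-culture, and 2 the reverse. The log2 fold changes of the 2 comparisons correlated across genes with Pearson's r of 0.673. They share no library, and their experiment numbers are the same. The log2 fold change of Cdkn1a was -4.89 alone and -4.42 in co-culture and that of Cpt1c -1.76 and -1.57, and the interaction test called neither (adjusted p = 0.756 and 0.612). The genes for which the test found a difference besides interferon-induced ones included Ggta1, a galactosyltransferase, which went from 15.9, 9.24 and 11.7 CPM to 0.775, 0.865 and 1.17 CPM alone (-3.70 ± 0.24) and from 59.95 ± 16.2 to 17.5 ± 4.8 CPM (mean ± SD, n = 3) in co-culture (-1.77 ± 0.17). DESeq2 called 275 genes in the same test and edgeR without the block 5.

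**Figure D5:**
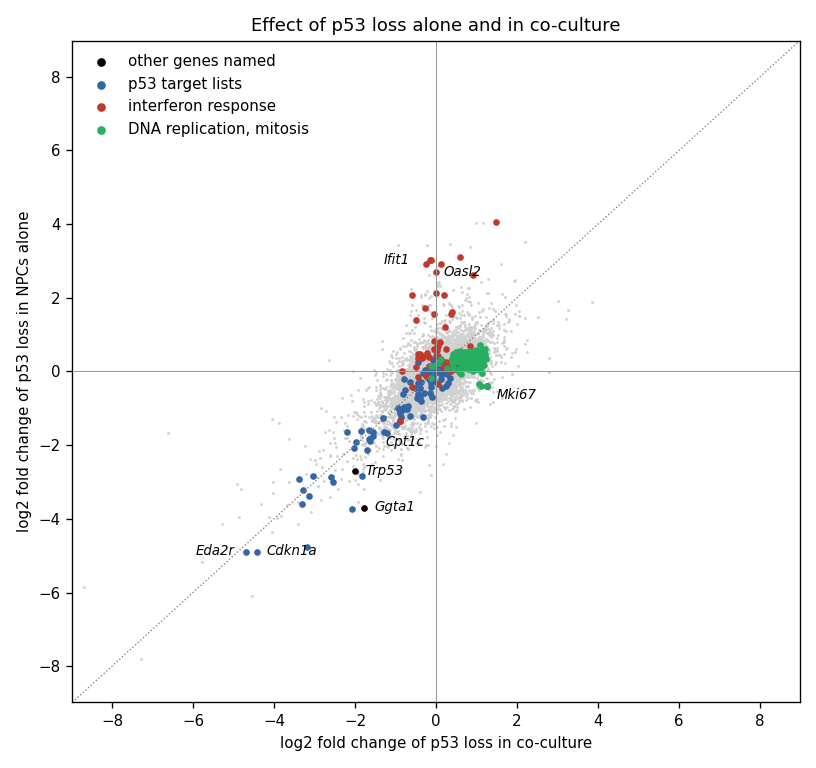
Log2 fold change of p53 loss in NPCs alone (vertical axis) against that in co-culture (horizontal axis) for each gene tested, with equal values on the dotted line. Genes of the p53 target lists (blue) lie along the line, and genes of DNA replication and mitosis (green) lie to the right of it. The 49 interferon genes (red) had a median of 0.58 alone, with 27 called higher, and of -0.03 in co-culture, with 3 higher and 4 lower.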

How the data were processed

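Libraries were made by the authors with the TruSeq mRNA stranded kit and sequenced as paired reads. According to the submitters' processing notes, tools were TopHat2 2.0.11 and HTSeq 0.6.1 with build mm9. The deposited values are raw counts per gene for 24108 gene symbols, made by the authors; 17884 had a count in an alone library. The strand setting and annotation version were not stated, so overlapping and antisense genes are uncertain. Dates stand in place of 27 symbols, which are not named.

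Counts of all 12 libraries were filtered with filterByExpr (13745 genes kept), scaled by TMM and fitted with the quasi-likelihood model of edgeR 4.0.16 (R 4.3.3), with 1 coefficient per group and the experiment number as a block. CPM are TMM-scaled, except for markers and contractile genes of the paragraph on depth and Rgs5 and Dcn, which are scaled by library size. P-values were adjusted by Benjamini-Hochberg over all genes, with a threshold of 0.05, and SE is the log2 fold change over the square root of F. The supplementary key states that equal numbers are paired; deviations from the group means correlated by 0.604, 0.429 and 0.504 within numbers and by -0.587 to 0.199 between them. No libraries of a group were copies, as counts differed by 13.2 to 62.5 times counting variance per gene.

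The comparison and the 47 gene lists were chosen with earlier results of these data known, and lists overlap. Named are, among called genes whose log2 CPM averaged 2 or more and whose 3 pairs share a sign, the 12 largest falls and rises, up to 6 called members per list, 10 set genes and genes of the interaction, besides list members that describe a list. Promoter windows are from RefSeq. Fits were tested on simulated counts. Alternatives were no block, other scalings and filters, DESeq2 1.42.0, a threshold of 0.01, the 6 alone libraries only, and fits without each library or experiment. A fit without a library assumes that its partner varies like the rest. Total counts limit the precision of genes at few counts. Figures used matplotlib 3.10.9. Some genes are not reported here.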

Additional observations from a re-analysis of the deposited data

Results flagged for a closer look

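For 11 genes the effect of p53 loss differed between NPCs alone and NPCs in co-culture by the interaction test of edgeR with the block. The count was 1 without experiment 1_10, 2 without experiment 25_9, 163 without experiment 17_9 and 4 at an adjusted p under 0.01. Values are the log2 effect alone minus that in co-culture. Most were interferon-induced: Ifit1 (3.15, adjusted p = 0.00429), Isg15 (2.69, adjusted p = 0.00429), Rtp4 (3.05, adjusted p = 0.00429), Oasl2 (3.19, adjusted p = 0.0159), Xaf1 (1.98, adjusted p = 0.0417), I830012O16Rik (2.24, adjusted p = 0.0417) and Oasl1 (2.54, adjusted p = 0.0493). The ubiquitin ligase Trim47 (2.34, adjusted p = 0.00918) went from 2.00, 1.19 and 1.32 CPM to 6.93, 6.29 and 5.6 CPM alone, against means of 9.85 and 8.27 CPM in co-culture. All 8 rose alone, and I830012O16Rik fell in co-culture (-0.61, adjusted p = 0.0226).

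Ggta1 fell more alone (-1.93, adjusted p = 0.0493). Mki67 (-1.64, adjusted p = 0.0468) and Ticrr, which acts in replication initiation (-1.02, adjusted p = 0.0493), were not called alone and were higher in p53-/- co-cultures, by 1.26 and 1.32 on the log2 scale. Co-culture libraries may hold bmvEC RNA, whose part in these differences was not tested.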

How the results depend on the processing

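At an adjusted p under 0.01, 230 genes were higher and 611 lower in NPCs alone, and 4 passed the interaction test. Without the replicate block these counts were 277, 587 and 5. All 277 and 587 genes were also called with it, and 82 of the 224 called genes named by the rule lost their call. Over the fits without a library or an experiment, genes higher ranged from 88 to 1311, genes lower from 383 to 1516 and genes of the interaction from 1 (without experiment 1_10) to 163 (without experiment 17_9). The interaction test called 7 genes with library size alone, 275 with DESeq2 and the block, 49 with no filter and 5 with a mean of at least 20 counts; the cause was not tested. Other alternatives (DESeq2, other scalings and filters, and the 6 alone libraries only) kept the genes higher between 721 and 1091 and the genes lower between 1266 and 1667. No called gene of the rule turned its direction under the 18 alternatives, and 91 of the 224 kept their call in each.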

Other observations

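Of all genes 7.25% were higher and 9.33% lower, against which the counts of the lists below are to be read. The adaptor Grb10, an imprinted gene that restrains insulin signalling, rose from 1.69, 1.74 and 2.54 CPM to 5.67, 8.15 and 10.2 CPM (2.00 ± 0.22, adjusted p = 9.41e-05), with no overlap between the groups, and was called in every alternative. Of 22 imprinted growth-control genes 3 were higher (13.6%), with Nnat (0.72 ± 0.12) and Cdkn1c the others, and 1 lower (4.55%), Igf2r (-0.48 ± 0.14, not called without the block, adjusted p = 0.148). Without experiment 25_9 1 was higher.

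Of 46 antioxidant and glutathione genes 8 were lower (17.4%) and 3 higher (6.52%). Nfe2l2, which encodes the transcription factor Nrf2, fell from 308, 229 and 255 CPM to 125, 116 and 137 CPM (-1.06 ± 0.10, adjusted p = 3.02e-05), and the glutathione transferase Gstt3 fell by 1.22 on the log2 scale. The count of genes lower was 2 without the block and 2 without experiment 25_9. Of 20 hypoxia genes 2 were higher (10.0%) and 1 lower (5%), counts too small to set against the 7.25% and 9.33% of all genes. The 2 higher were Ndrg1 (1.18 ± 0.21) and P4ha2 (1.09 ± 0.24) and the 1 lower was Epas1 (-0.58 ± 0.12), and without experiment 25_9 none was higher.

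Reference genes were not all level. Gapdh (0.12 ± 0.12, adjusted p = 0.509) and Actb (0.22 ± 0.16, adjusted p = 0.353) were not called, but 3 of 13 reference genes were higher, Rpl13a (0.50 ± 0.12, adjusted p = 0.0153) and Ppia (0.37 ± 0.11) among them. The list had between 0 and 4 genes higher over the fits without a library or an experiment, and 1 without the block. Of 30 genes of the endothelial list 1 was called, Cd93, which rose from 18.3, 28.6 and 27.8 CPM to 29.99, 58.9 and 58.2 CPM (0.95 ± 0.16) and was not called without experiment 1_10, while the list summed to 90.8 to 99.9 CPM in p53+/+ and 109 to 134 CPM in p53-/- NPCs. None of 3 tested microglial genes was called by edgeR (1 were higher and 0 lower at an unadjusted p under 0.05, and DESeq2 called 0 higher and 0 lower).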
